A study of Mus musculus with 3 samples.

Results

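The 10 genes described here are the D-type cyclins Ccnd1, Ccnd2 and Ccnd3, the G1 kinases Cdk4 and Cdk6, the neuronal kinase Cdk5 with its activators Cdk5r1 and Cdk5r2, and the kinase inhibitors Cdkn1b and Cdkn2d. They were chosen by name among 18118 coding genes with a value. RNA of wild-type (WT) mouse cortical neurons labelled as control (CON) was sequenced in 3 libraries, which form 1 group. The labels give no age, sex, culture time or number of animals. By its title, the study concerns DNA supercoiling and topoisomerases in neurons. Since a second condition is not among the libraries used here, each comparison is between genes of the same library.

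D cyclins join CDK4 or CDK6 to phosphorylate the retinoblastoma protein, which lets a cell pass from G1 into S phase. The products of Cdkn1b (p27) and Cdkn2d (p19) hold such kinases back, and both are known for keeping neurons out of the cycle. CDK5 shares the fold of the cell cycle kinases but is activated in neurons by p35 and p39, the products of Cdk5r1 and Cdk5r2, and acts on the cytoskeleton, migration and synapses rather than on division.

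The paralogs among these genes resemble each other in coding sequence, so it matters whether reads can tell them apart. The stretches of 60 coding bases below are those at which the other genes of a family are together most like its first gene. They are shown 5′ to 3′ from the GENCODE transcripts. Capitals mark bases that differ from the first sequence of each family.
Ccnd1: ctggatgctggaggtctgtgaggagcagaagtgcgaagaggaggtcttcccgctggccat
Ccnd2: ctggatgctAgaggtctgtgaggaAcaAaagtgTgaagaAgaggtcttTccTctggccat
Ccnd3: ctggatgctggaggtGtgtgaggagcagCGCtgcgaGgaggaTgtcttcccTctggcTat
Cdk4: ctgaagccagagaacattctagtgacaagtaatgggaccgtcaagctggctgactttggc
Cdk6: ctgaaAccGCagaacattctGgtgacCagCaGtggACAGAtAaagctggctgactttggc
Cdk5: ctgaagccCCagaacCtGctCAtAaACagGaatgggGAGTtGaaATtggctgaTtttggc
Cdk5r1: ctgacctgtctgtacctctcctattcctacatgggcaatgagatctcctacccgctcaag
Cdk5r2: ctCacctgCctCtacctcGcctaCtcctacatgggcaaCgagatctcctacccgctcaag

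In these stretches Ccnd2 and Ccnd3 differed from Ccnd1 at 7 and 8 bases, Cdk6 and Cdk5 from Cdk4 at 13 and 18, and Cdk5r2 from Cdk5r1 at 6. Over the aligned coding bases the D cyclins were 68.8% to 72.4% identical, and Cdk4 and Cdk6 70.8%. Cdk5 was 63.4% identical to Cdk4 and 65.8% to Cdk6, and Cdk5r1 and Cdk5r2 were 72.7% identical. The longest run of identical bases between the transcripts of any such pair was 23, in Cdk5r1 and Cdk5r2. Of 50-base words taken along each gene's transcript, none recurred elsewhere on the GRCm38 chromosomes for 7 members. Cdk4 and Cdk6 had 98.0% and 97.3% unique words. Ccnd3 had 81.2%, and 37 of its 202 words were also found in Ccnd3-ps, a processed pseudogene on chromosome 4 listed at 0.079 TPM or less. The level of Ccnd3 is therefore less certain, since how reads with several matches were treated is not given in the sources used here.

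Levels are in TPM, a relative abundance scaled by transcript length and library depth. Levels of different genes can be compared only for a given choice of transcripts, and some comparisons below change with that choice. The value of a gene is that of whichever coding transcript gathered the most reads. Of the 10 members, 9 had a mean of at least 1 TPM, the level called expressed here, as had 61.8% of all coding genes. The same 9 passed at 0.5 and at 2 TPM, beside 66.6% and 54.9% of coding genes. The median level of the 10 members was 23.5 TPM, beside 2.91 TPM over all coding genes. By these values Cdk5r2 and Cdk5r1 were highest, Ccnd2, Cdk5, Cdk4, Cdkn2d and Cdkn1b followed within a narrow range, and Cdk6 was the only member under 1 TPM. In bulk RNA, fewer cells of a type and less RNA per cell cannot be told apart.

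**Figure D1:**
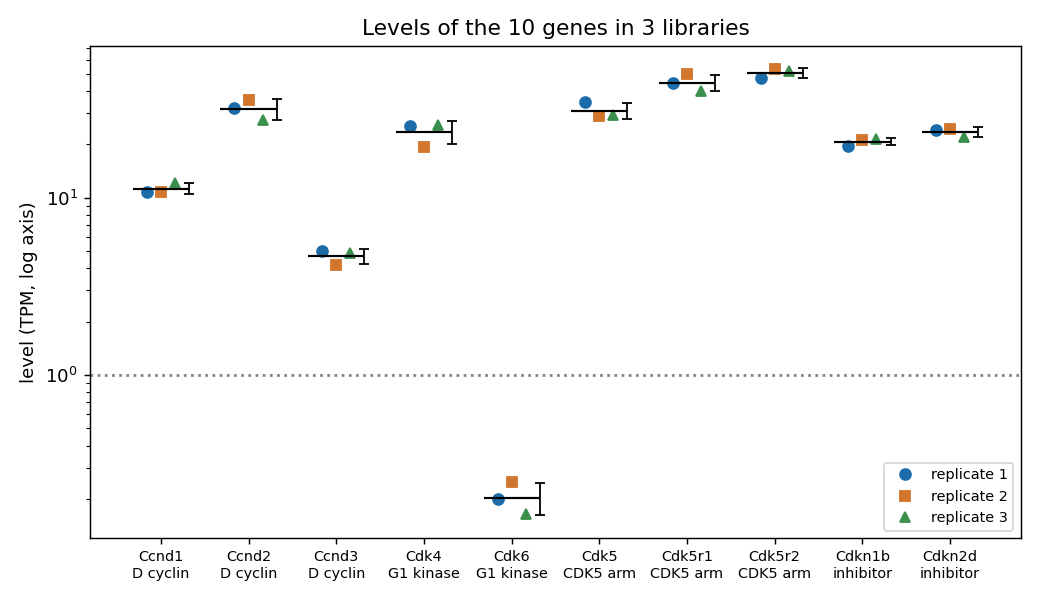
Level of each gene in TPM on a log axis, with 1 symbol per library, the mean as a bar and the SD over 3 libraries as an error bar. Cdk6 lies near 0.20 TPM, below the dotted line at 1 TPM, and the other genes lie between 4.17 and 52.9 TPM.

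The D cyclins differed in level, with Ccnd2 highest and Ccnd3 lowest in each library. Ccnd2, the D cyclin known in cortical progenitors, stood at 31.99, 35.7 and 27.2 TPM in replicates 1, 2 and 3, a mean of 31.6 ± 4.24 TPM (SD, n = 3). Ccnd1, which mitogens induce in many cell types, stood at 10.8, 10.7 and 12.1 TPM, a mean of 11.2 ± 0.80 TPM. Ccnd3, the D cyclin best known from blood and muscle lineages, stood at 5.02, 4.17 and 4.85 TPM, a mean of 4.68 ± 0.45 TPM. The ranges of the 3 genes did not overlap.

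Ccnd2 exceeded Ccnd1 by 1.48 ± 0.29 on the log2(TPM + 0.1) scale, a mean ratio of 2.84 ± 0.55 (n = 3, p = 0.25 by an exact sign-flip permutation test, two-sided). It was higher in 3 of 3 libraries, with ratios from 2.24 to 3.32. The Ccnd3 minus Ccnd1 difference was -1.25 ± 0.14 and the Ccnd2 minus Ccnd3 difference 2.73 ± 0.31, each keeping its sign in every library (exact sign-flip p = 0.25 for both). With 3 libraries 0.25 is the smallest p this test allows, and the adjusted p over the 11 pairs compared was 0.25 for each. The sign-flip test could not reach 0.05, so each difference is read against its spread between libraries. The position of Ccnd3 depended on its transcripts. Its 16 coding transcripts overlap and share reads, and their levels ran from 1.84 to 7.68 TPM. With the sum over coding transcripts, which counts shared reads repeatedly, Ccnd3 reached 70.7 TPM and both differences changed sign, to 2.64 against Ccnd1 and -1.16 for Ccnd2 minus Ccnd3. With the most abundant coding transcript they were -0.55 and 2.03.

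Reads recovered from the table show how the D cyclin values are built. Ccnd2 rested on 9347, 8798 and 7093 reads, Ccnd1 on 2065, 1738 and 2074, and Ccnd3 on 530, 371 and 456. Counting error alone would give a coefficient of variation of 1.09% for Ccnd2, 2.26% for Ccnd1 and 4.70% for Ccnd3. The coefficients over the 3 libraries, which also hold any variation between samples, were 13.4%, 7.09% and 9.65%. In Ccnd3, the fragment Ccnd3-210 of 464 bases carried 361 reads per kb. The other 1596 bases of the transcript used for the gene carried 178 reads per kb. The other shorter transcripts lying wholly inside that transcript, of 853, 926 and 277 bases, went the other way. They carried 185, 167 and 85.4 reads per kb, against 244, 262 and 240 reads per kb outside them. The retained-intron transcript Ccnd3-206 was the highest non-coding one at 0.89 TPM. Its bases outside the short transcript Ccnd3-212 carried 8.13 ± 1.4% of the read density inside it. Reads outside a shorter transcript were found by subtraction. A read touching both parts thus counts as inside, and the density outside is understated. The non-coding transcript Ccnd1-202 stood at 7.83 ± 1.53 TPM.

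Cdk4 carried nearly all of the G1 kinase signal. Cdk4, the main D cyclin partner in many tissues, stood at 25.4, 19.4 and 25.6 TPM, a mean of 23.5 ± 3.54 TPM. Cdk6, its close relative, stood at 0.20, 0.25 and 0.16 TPM, a mean of 0.20 ± 0.04 TPM. The Cdk6 values came from 38, 40 and 28 reads. The exact 95% Poisson interval of its mean runs from 0.167 to 0.246 TPM and covers counting error only. Replicate 2 held the lowest Cdk4 and the highest Cdk6 value, and the 2 genes were far apart in every library.

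Cdk4 exceeded Cdk6 by 6.28 ± 0.42 log2 units, in 3 of 3 libraries (n = 3, p = 0.25 by the exact sign-flip test), with ratios from 78.2 to 156. The size rests on the pseudocount and on the transcripts: it was 4.33 with a pseudocount of 1 TPM, 6.98 with the most abundant coding transcript and 8.06 with the sum over coding transcripts. The Cdk6 transcript counted by the authors ends before the current annotation does, at 3735 instead of 11525 exonic bases, so reads beyond that end are not in its value. Cdk6 exceeded only 28.2% of coding genes in level, and Cdk4 exceeded 87.9%.

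The level given for Cdk4 depends on which part of the gene is counted. Cdk4-201, the transcript with the most reads among coding ones, was the lowest of the 4 coding transcripts at 23.5 TPM. Cdk4-202 was highest at 39.5 ± 5.62 TPM, and the retained-intron transcript Cdk4-206 reached 50.9 ± 9.18 TPM. The 1339 bases of Cdk4-201 that Cdk4-202 lacks, 902 of them in the 3′ UTR, carried 37.7 ± 1.14% of the read density of the shared bases, at 701 against 1856 reads per kb. This is by subtraction of reads, so a read touching both parts counts for the shared bases. The density outside them is thereby understated. Cdk4 shares 641 exonic bases with Tspan31, a gene on the other strand at 30.6 TPM. Counting used strand, as far as the table shows: single-exon transcripts lying within an exon of another gene had a median of 0.314% of its TPM where the strands were opposite (23 transcripts) and 36.9% where they were the same (52 transcripts).

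**Figure D2:**
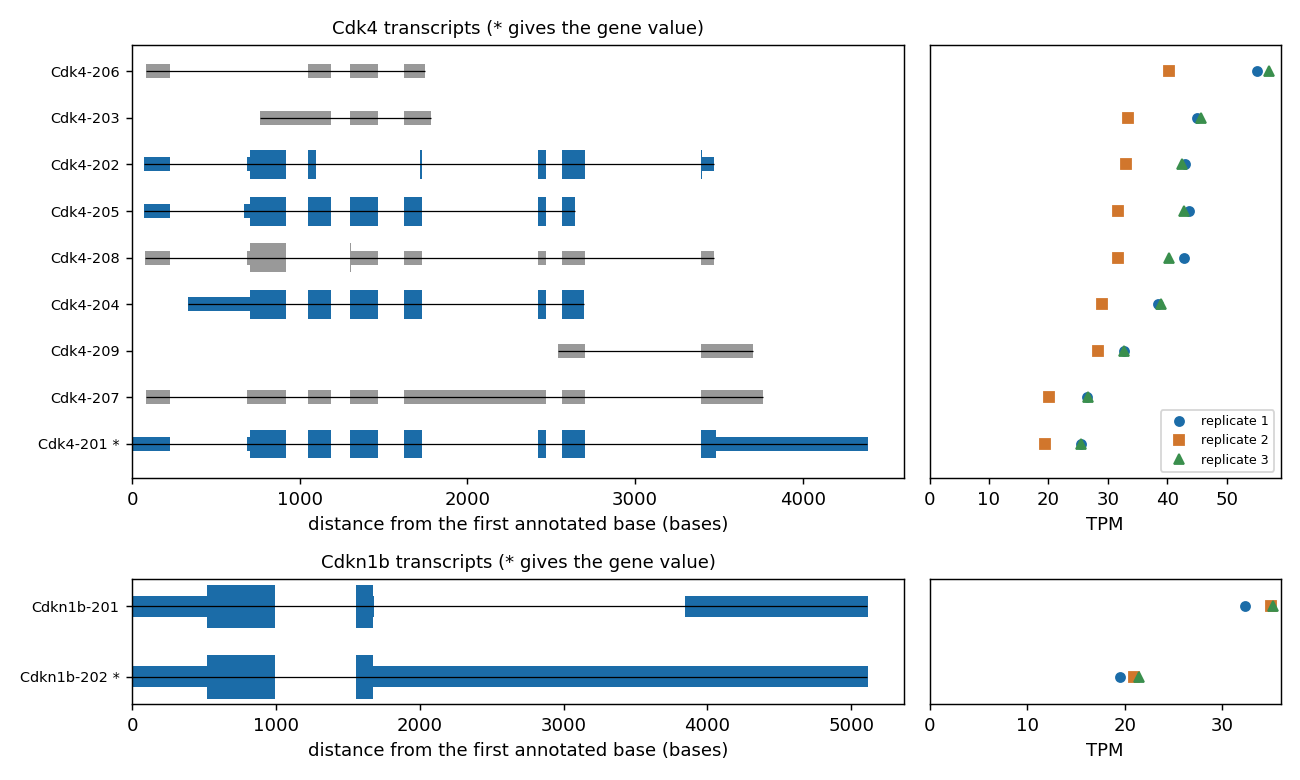
Exon maps of the Cdk4 and Cdkn1b transcripts against distance in bases, with coding parts drawn taller and non-coding transcripts in grey, beside the TPM of each transcript in 3 libraries. The longest transcript of each gene, which gives the gene value, has the lowest TPM among its coding transcripts: 23.5 against up to 39.5 for Cdk4 and 20.7 against 34.2 for Cdkn1b.

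Cdk5 and its activators were among the higher coding genes, each above 91.1% or more of them. Cdk5 stood at 34.4, 28.9 and 29.3 TPM, a mean of 30.9 ± 3.10 TPM. Cdk5r1, whose product p35 tethers the kinase to membranes, stood at 44.1, 49.5 and 39.8 TPM, a mean of 44.5 ± 4.84 TPM. Cdk5r2, which encodes the related p39, stood at 47.0, 52.9 and 51.5 TPM, a mean of 50.5 ± 3.08 TPM. Both activator genes were above the kinase gene in every library, and their own ranges overlapped.

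Cdk5r1 lay below Cdk5r2 in 3 of 3 libraries, by -0.19 ± 0.16 log2 units, with a mean ratio of 0.883 ± 0.094 (n = 3, p = 0.25 by the exact sign-flip test). The mean difference is close to its SD. It turned to 0.66 with the sum over coding transcripts, which adds the overlapping Cdk5r1-202 at 35.3 ± 4.91 TPM. Cdk5 lay below Cdk5r1 by -0.52 ± 0.22 log2 units in 3 of 3 libraries (exact sign-flip p = 0.25), or -1.37 with that sum. The values rested on at least 2559 reads per library for Cdk5, 7574 for Cdk5r1 and 6401 for Cdk5r2. Both activator genes are represented by single-exon transcripts, of 4162 and 2799 bases, whereas Cdk5 has 12 exons in 5.29 kb.

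The CDK5 gene was compared with kinases that drive the cycle. Cdk5 exceeded Cdk2, the S phase kinase gene, by 4.94 ± 0.12 log2 units, with Cdk2 at 0.90 ± 0.07 TPM (exact sign-flip p = 0.25, n = 3; higher in 3 of 3 libraries). This was 4.06 with a pseudocount of 1 TPM and 4.0 with the sum over coding transcripts. It exceeded Cdk6 by 6.68 ± 0.26, or 4.72 with a pseudocount of 1 TPM and 5.91 with the sum. Against Cdk4 the outcome was not settled. Cdk5 was higher by 0.40 ± 0.19 log2 units in 3 of 3 libraries (exact sign-flip p = 0.25), but the difference was -0.35 with the most abundant coding transcript and -2.15 with the sum over coding transcripts.

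**Figure D3:**
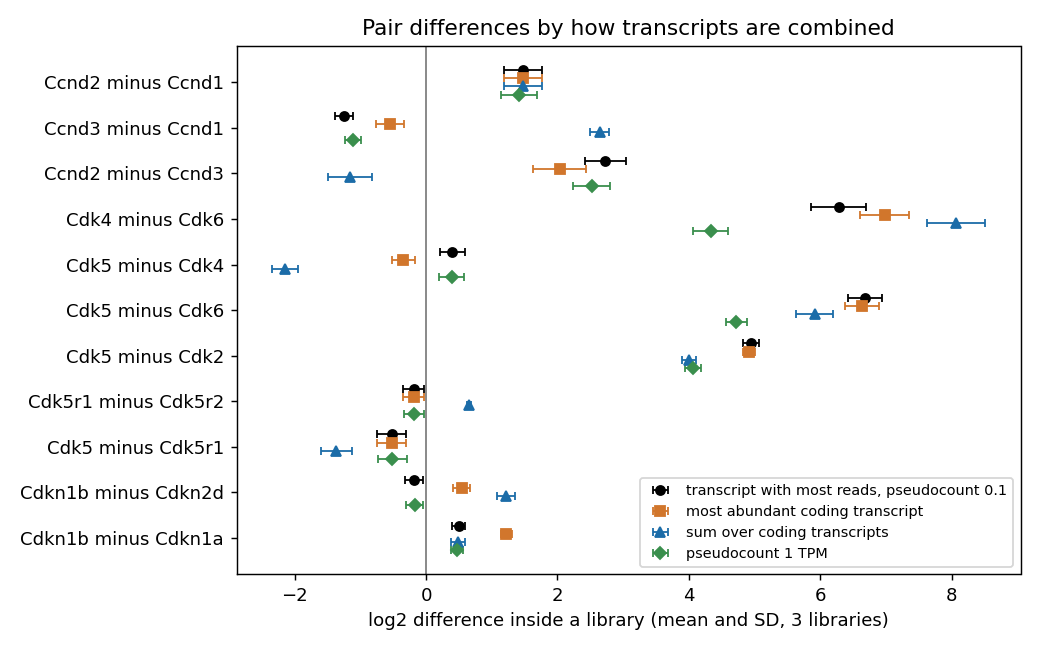
Log2 differences between 11 pairs of genes inside a library, as mean and SD over 3 libraries, under 4 ways of computing them. Cdk5 minus Cdk4 and Cdkn1b minus Cdkn2d cross 0 with the most abundant transcript and with the sum, and Ccnd3 minus Ccnd1, Ccnd2 minus Ccnd3 and Cdk5r1 minus Cdk5r2 cross it with the sum only.

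The inhibitor genes Cdkn1b and Cdkn2d were both expressed. How they compare with Cdk4 depends on the transcript: Cdk4 minus Cdkn2d was -0.01 ± 0.29 log2 units by the values used here, 0.74 ± 0.28 with the most abundant coding transcript and 2.54 ± 0.30 with the sum over coding transcripts. Cdkn1b, which encodes p27 of the Cip/Kip family, stood at 19.5, 20.97 and 21.4 TPM, a mean of 20.7 ± 0.99 TPM. Cdkn2d, which encodes p19, an INK4 inhibitor of CDK4 and CDK6, stood at 24.1, 24.4 and 21.8 TPM, a mean of 23.4 ± 1.42 TPM. They had the narrowest spread of the members beside Cdk5r2, with coefficients of variation of 4.80%, 6.06% and 6.10%. The median over all expressed coding genes was 7.88%.

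Cdkn1b lay below Cdkn2d by -0.18 ± 0.14 log2 units in 3 of 3 libraries (exact sign-flip p = 0.25, n = 3), a size close to its SD. The difference was 0.54 with the most abundant coding transcript and 1.22 with the sum over coding transcripts, so the order of the 2 inhibitor genes depends on the transcript. Cdkn1b-202, with the most reads, keeps 2159 bases of the 3′ UTR that are spliced out of Cdkn1b-201. By the same subtraction of reads as for Cdk4, these bases carried 16.6 ± 1.12% of the read density of the shared bases, at 265 against 1592 reads per kb. Cdkn1b-201 accordingly stood at 34.2 ± 1.58 TPM. Cdkn1b exceeded Cdkn1a, the p21 gene and the other well-known Cip/Kip member, by 0.50 ± 0.09 log2 units in 3 of 3 libraries (exact sign-flip p = 0.25), with Cdkn1a at 14.6 ± 1.15 TPM, and by 1.22 with the most abundant coding transcript. The reads of Cdkn2d came out whole for a length of 1271 bases, which is its deposited span without a 52-base exon of the current annotation.

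Sorted by level, 7 of 9 neighbouring pairs of members had the same sign in the 3 libraries and a mean difference larger than its SD. The pairs were picked by the levels in these same libraries, so this is a description and not a test. The order was Cdk5r2, Cdk5r1, Ccnd2, Cdk5, Cdk4, Cdkn2d, Cdkn1b, Ccnd1, Ccnd3 and Cdk6. Ccnd2 and Cdk5 (0.03 ± 0.24 log2 units) and Cdk4 and Cdkn2d (-0.01 ± 0.29) did not differ beyond their spread. The widest step was from Ccnd3 to Cdk6, at 3.98 ± 0.32. This order holds for the chosen transcripts only. With the most abundant coding transcript, Cdk4 (39.5 TPM) and Cdkn1b (34.2 TPM) had higher means than Ccnd2 and Cdk5, and 5 of 9 neighbours were set apart. With the sum over coding transcripts, Cdk4 led at 138 TPM, and Cdk5r1 (79.7 TPM), Ccnd3 (70.7 TPM) and Cdkn1b (54.8 TPM) had higher means than Cdk5r2. Cdk6 was lowest in each of these orders.

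The libraries moved the members in different directions. Of the 9 expressed members, 4 were lowest in replicate 2, namely Cdk4, Ccnd3, Cdk5 and Ccnd1, as were 25.4% of all expressed coding genes. Replicate 3 held the lowest value of Ccnd2, Cdk5r1 and Cdkn2d, and 40.9% of all expressed genes were lowest there. Replicate 1 held that of Cdk5r2 and Cdkn1b, beside 33.6% of expressed genes. The highest value fell in replicate 2 for 4 members, in replicate 3 for 3 and in replicate 1 for 2, beside 40.4%, 31.4% and 28.2% of expressed genes. With so few members these shares are not a result about them. The ratio of highest to lowest library was 1.32 for Cdk4, 1.31 for Ccnd2 and 1.10 for Cdkn1b, with a median of 1.16 over expressed genes.

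**Figure D4:**
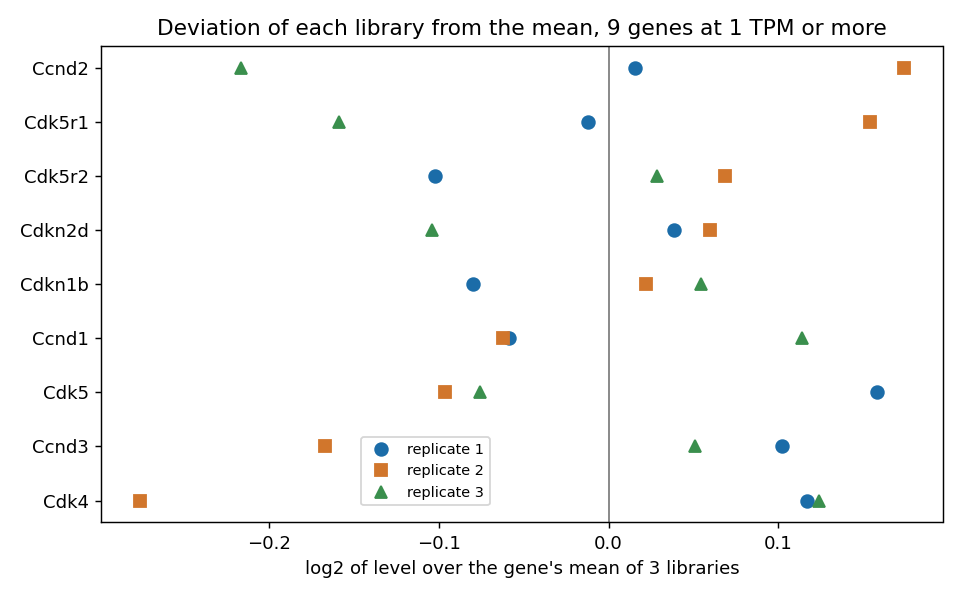
Deviation of each library from the gene's mean on the log2 scale for the 9 members at 1 TPM or more, sorted by replicate 2. Replicate 2 is highest for Ccnd2, Cdk5r1, Cdk5r2 and Cdkn2d and lowest for Ccnd1, Cdk5, Ccnd3 and Cdk4.

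Marker levels moved between the same libraries. The 10 neuronal markers summed to between 2155 and 2460 TPM and were each lowest in replicate 3, beside 40.9% of all expressed coding genes. Ccnd2, Cdk5r1 and Cdkn2d were also lowest there, whereas Ccnd1, Cdk4 and Cdkn1b were highest there. Of 10 proliferation markers, 8 were expressed, beside 61.8% of all coding genes. These 8 were each lowest in replicate 2, beside 25.4% of all expressed coding genes. Cdk4, Ccnd3, Cdk5 and Ccnd1 were also lowest in that library, whereas Ccnd2, Cdk5r1, Cdk5r2 and Cdkn2d were highest there. The proliferation list summed to between 22.2 and 27.9 TPM. Pcna, its highest gene at 8.36 ± 1.2 TPM, had 44.9% unique 50-base words and Ccnb1 36.9%, so both are uncertain. Oligodendrocyte lineage markers (7 of 9 expressed) summed to between 50.6 and 84.8 TPM. Of the 7, 5 were lowest in replicate 2 and 5 highest in replicate 3, beside 25.4% and 31.4% of all expressed coding genes. Astrocyte markers (9 of 10) summed to 432, 459 and 525 TPM in replicates 1, 2 and 3. Of the 9, 6 were highest in replicate 3, beside 31.4% of all expressed coding genes. Radial glia and progenitor markers (8 of 9) summed to 604, 528 and 442 TPM, of which Fabp7 gave 503, 415 and 340 TPM. Of the 8, 3 were lowest in replicate 3, beside 40.9% of all expressed coding genes. Microglia (1 of 7), endothelial (0 of 7) and pericyte and fibroblast markers (3 of 7) reached at most 2.66, 2.09 and 7.53 TPM, with Tmem119 and Cldn5 listed at 0 in each library. The labelled neurons thus came with RNA of genes listed as glial, progenitor and dividing cell markers. The part of such cells in the D cyclin and Cdk4 levels was not tested.

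Genes that act with the members were described from textbook lists. The counts of expressed genes, in these lists and those below, stand beside 61.8% of all coding genes. Of 14 cyclins and kinases of the later cycle and of CDK activation, 9 were expressed, close to that share, with a median of 1.57 TPM. The 3 highest, Ccnh at 24.2 ± 0.91, Cdk7 at 5.19 ± 0.30 and Mnat1 at 4.69 ± 0.53 TPM, encode the CDK-activating complex, which also serves transcription. Ccna1, a mainly germline cyclin, was lowest at 0.39 ± 0.06 TPM. Among 6 other CDK inhibitors, 3 were expressed: Cdkn1a at 14.6 ± 1.15 TPM and the INK4 genes Cdkn2c at 1.65 ± 0.14 and Cdkn2b at 1.33 ± 0.15 TPM. Cdkn1c, the p57 gene, was lowest at 0.20 ± 0.01 TPM. The means of Cdkn2a and Cdkn3 were also under 1 TPM. By the values used here Cdkn2d and Cdkn1b had higher means than these 6 genes, but with the sum over coding transcripts Cdkn1a, at 39.2 ± 3.87 TPM, had a higher mean than Cdkn2d, at 23.4 TPM.

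Of 18 genes for pocket proteins, E2F factors and the DREAM complex, which repress or drive cell cycle genes downstream of the D cyclin kinases, 14 were expressed, with a median of 4.94 TPM. Rbbp4, a histone-binding subunit, reached 23.1 ± 1.89 TPM, the E2F partner gene Tfdp1 14.3 ± 0.56 TPM and Rb1, the retinoblastoma gene, 11.6 ± 1.32 TPM. E2f2 was lowest at 0.16 ± 0.04 TPM. Tfdp1 had 50% unique 50-base words and is uncertain. Of 15 genes for the turnover of D cyclins and p27, 14 were expressed, with a median of 11.2 TPM. The ubiquitin ligase genes Skp1a, Fbxw7 and Rbx1 stood at 276 ± 7.31, 50.7 ± 3.81 and 42.8 ± 3.10 TPM. Skp1a and Rbx1 had 88.9% and 83.9% unique 50-base words and are less certain. Skp2, whose F-box product marks p27 for degradation in cycling cells, was lowest at 0.92 ± 0.05 TPM.

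All 23 genes listed as CDK5 partners and substrates were expressed, with a median of 30.4 TPM. Dpysl3, of the collapsin response mediators, stood at 222 ± 21.6 TPM and the beta-catenin gene Ctnnb1 at 125 ± 6.47 TPM. Capn1, a calpain gene, was lowest at 1.30 ± 0.24 TPM. Of these 23 genes, 16 were lowest in replicate 3, as was Cdk5r1 but not Cdk5 or Cdk5r2, beside 40.9% of all expressed coding genes. The 10 neuronal markers were lowest in that library too, and Dcx and Syn1 are in both lists. The part of the neuron content in these values was not tested.

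Kinases related to CDK5 outside the cycle were compared last. Of 7 genes of the PCTAIRE, PFTAIRE and cyclin Y group, 5 were expressed. Cdk16, Cdk17 and Cdk14 stood at 68.3 ± 4.28, 36.2 ± 3.65 and 32.7 ± 3.72 TPM, beside 30.9 ± 3.10 TPM for Cdk5. Cdk16 was above Cdk5 in each library, and the ranges of Cdk17 and Cdk14 overlapped that of Cdk5. Cdk15 was lowest at 0.14 ± 0.08 TPM. The 12 transcription kinase and cyclin genes were each expressed, with a median of 7.53 TPM. Cdk11b, Ccnl2 and Cdk9 led at 22.3 ± 1.64, 19.4 ± 2.98 and 16.8 ± 1.18 TPM, and Cdk12 was lowest at 2.86 ± 0.17 TPM. Cdk9 had 72.8% unique 50-base words.

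**Figure D5:**
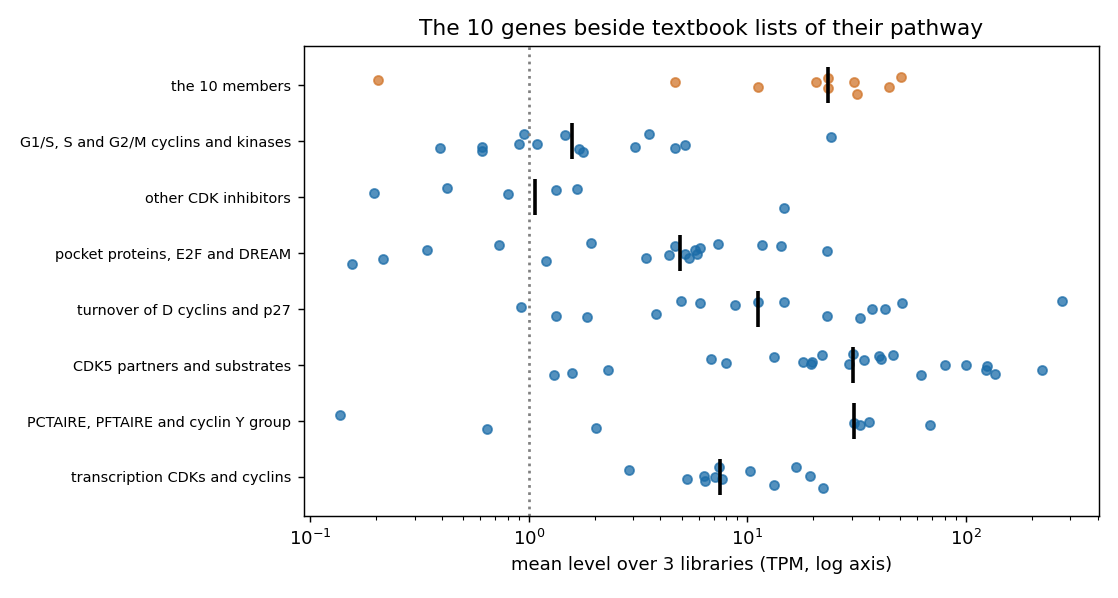
Mean level over 3 libraries in TPM on a log axis for the 10 members and for 7 textbook lists, with 1 point per gene and a bar at each median. The members' median of 23.5 TPM lies between those of the later cell cycle list (1.57 TPM) and the CDK5 partner list (30.4 TPM).

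The members lie on 8 chromosomes of GRCm38. Ccnd2 (ENSMUSG00000000184.12) spans 127125162 to 127152193 and Cdkn1b (ENSMUSG00000003031.14) 134920401 to 134925513 on chromosome 6. Cdk5 (ENSMUSG00000028969.10) spans 24418241 to 24423530 and Cdk6 (ENSMUSG00000040274.11) 3341485 to 3531008 on chromosome 5. Cdk6 is the longest member at 190 kb, followed by Ccnd3 (ENSMUSG00000034165.16) at 94.6 kb, from 47505051 to 47599691 on chromosome 17. Ccnd1 (ENSMUSG00000070348.5) spans 144929931 to 144939925 on chromosome 7 and Cdk4 (ENSMUSG00000006728.12) 127063534 to 127067920 on chromosome 10. Cdk5r1 (ENSMUSG00000048895.13) spans 80477023 to 80481184 on chromosome 11, Cdk5r2 (ENSMUSG00000090071.4) 74854934 to 74857732 on chromosome 1 and Cdkn2d (ENSMUSG00000096472.2) 21288410 to 21291407 on chromosome 9. By the chosen transcripts the 2 longest genes had the lowest levels, a description of 10 genes only. With the sum over coding transcripts this did not hold for Ccnd3, at 70.7 TPM. For 6 members RefSeq promoter windows of 300 bases on GRCm38.p6 were at hand, 7 windows in all. They held 15 to 33 CpG dinucleotides, beside a median of 7 over 32851 windows of all genes.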

How the data were processed

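The deposited table, made by the authors, lists 84660 GENCODE M4 transcripts with their abundance in TPM. The tools named, per the submitters' processing notes, include Subread 1.4.6, featureCounts, STAR 2.5.3a and FastQC 0.11.2, and mm10 is the build. Identifiers, less their version, were looked up in GENCODE M21 (GRCm38, the same build), and 98.1% of rows matched. Reads were recovered from TPM times exonic length and came out whole, within 0.01 of a read, in 98.0% of 77590 matched rows above 0. Where ends differed between releases, the deposited ends were used. In replicates 1, 2 and 3, 32459567, 28658758 and 28199787 reads lay on the coding transcripts that give the gene values. These totals cover 17713 genes whose reads came out whole and are not the full depth of the libraries.

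The gene value is that of the coding transcript with the highest mean TPM times exonic length, with ties going to the higher TPM. It is lower than TPM scaled over coding genes alone, by a factor of 4.65. Where a member's transcript lay wholly inside another (24 pairs), the shorter never had more reads. That cannot show whether transcripts share reads, since a shorter transcript could hold fewer either way. Overlapping coding transcripts of Ccnd3 with 2060, 2064 and 2113 bases held the same counts in each library, 530, 371 and 456. Reads of Ccnd3 were therefore taken as shared between transcripts. For the other members, the subtraction of reads and the sum over coding transcripts assume the same. For gene pairs, log2(TPM + 0.1) values were subtracted library by library and tested by exact sign-flip permutation (two-sided), adjusted over 11 pairs by Benjamini-Hochberg. Such differences understate those of low genes. Labels do not say that the libraries came from separate cultures, so their spread may be technical. Words of 50 bases were taken every 10 bases and searched on 22 chromosomes.

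The members and lists were chosen with earlier results of these data known. Named are the members, the 3 highest and the lowest gene of each textbook list and the transcripts that give, or lead beside, a member's value, except 1 listed gene that is not reported here. Other genes and transcripts were named after their values were seen. Alternatives were pseudocounts of 1 and 0.01 TPM, other ways of combining transcripts, rescaling, minimums of 0.5 and 2 TPM and leaving out each replicate. On simulated reads of all matched transcripts 100% were recovered over 71254 rows above 0. The simulation made and recovered reads with the same M21 lengths, so it does not test those lengths. Python 3.11.15, numpy 2.4.6, pandas 2.3.3, scipy 1.17.1 and matplotlib 3.10.9 were used.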

Additional observations from a re-analysis of the deposited data

How the results depend on the processing

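Of 88 pair differences recomputed, 81 kept their direction and 7 reversed. The most abundant coding transcript reversed Cdk5 minus Cdk4 (-0.35) and Cdkn1b minus Cdkn2d (0.54). The sum over coding transcripts reversed Ccnd3 minus Ccnd1 (2.64), Ccnd2 minus Ccnd3 (-1.16), Cdk5 minus Cdk4 (-2.15), Cdk5r1 minus Cdk5r2 (0.66) and Cdkn1b minus Cdkn2d (1.22). That sum counts shared reads once for each transcript, by its construction. None of the 33 values that left out a replicate reversed, and none could, since each pair had kept its sign in all 3 libraries. Another pseudocount or rescaling cannot change a sign inside a library either. Only the other ways of combining transcripts could reverse a pair, so the 81 include values fixed in advance. Of the 88, 18 moved by over 1.5-fold, of which 9 with the sum, 6 with the most abundant transcript and 3 with a pseudocount of 1 TPM. The count of 9 expressed members was the same under each alternative run. Rescaled to nuclear coding genes, 4 members were highest in replicate 3 and 3 in replicate 2. No paired analysis was possible because there is 1 group, and each pair was already compared inside a library. Depth limits Cdk6, with 28 to 40 reads per library. The sign-flip test could not reach 0.05 with 3 libraries.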
